A study of Mus musculus with 34 samples.

Results

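The extracellular proteases that act on the cumulus matrix at ovulation, and the tissue inhibitors of metalloproteinases (TIMPs) that restrain them, were followed in cumulus cells (CCs) through 10 genes taken by symbol from the count table, which holds 25965 gene entries. They comprised the secreted proteases Adamts1, Adamts4 and Adamts5, the membrane-bound proteases Adam9, Adam10 and Adam17, the gelatinase Mmp2, and the inhibitors Timp1, Timp2 and Timp3. All 10 had reads in each of the 34 libraries and passed the filter on low counts in every comparison. The CCs came from superovulated C57BL/6J female mice that entered the protocols at 8 weeks of age, and were sequenced by Smart-seq2, which primes polyadenylated RNA with oligo-dT and amplifies the cDNA by PCR. Mice were injected for 16 days with saline (16 C, n = 3) or with 100 µg of leptin per day (16 L, n = 5), a model of high leptin without obesity. In the diet-induced obesity protocol, mice received chow diet (CD, 11% of energy from fat) or high-fat diet (HFD, 58%). They were fed for 4 weeks (4-week CD and 4-week HFD, each n = 5) or for 16 weeks (16-week CD, n = 6, and 16-week HFD, n = 7). A further 3 mice gained little weight on 16 weeks of HFD. No group carried a transgene or mutation. Each library stood for about 50 cells, taken from 1 cumulus-oocyte complex according to the labels, so the spread between libraries joins differences between mice and between complexes.

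After the ovulatory surge, CCs lay down a matrix of hyaluronan cross-linked by proteins and by the proteoglycan versican, and the complex expands. ADAMTS1, ADAMTS4 and ADAMTS5 cut versican and related proteoglycans. ADAM17 releases the epidermal growth factor-like ligands amphiregulin and epiregulin from the cell surface, ADAM10 releases betacellulin and cuts Notch receptors and N-cadherin, and ADAM9 is a further membrane protease. MMP2 degrades collagen IV and gelatin, and its proenzyme is activated by MMP14 in a complex that needs TIMP2. TIMP3 inhibits ADAM17, ADAM10 and the ADAMTS aggrecanases, TIMP1 inhibits ADAM10 and most matrix metalloproteinases, and TIMP2 inhibits matrix metalloproteinases.

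Total counts per library ranged from 1104611 to 13207018, and reads of PCR copies are not independent molecules, so limits for low counts cover counting error only. Levels are given as CPM, reads scaled to a common library size with TMM factors over all 34 libraries. Of the 14 cumulus and granulosa markers checked, every one had reads in each group except Amh, which had 0 reads in the low weight gainers. The library 16 L 18 stood apart. Its summed oviduct epithelium markers reached 36296 CPM, against at most 1869 CPM in any other library, its 3 red blood cell markers in the table summed to 11250 CPM, and its cumulus and granulosa markers summed to 889 CPM, against 2753 CPM or more in each other library. Oocyte markers summed to 600 CPM in 4-week HFD 5 and to at most 59.7 CPM elsewhere. In these bulk libraries, fewer cells of a type and less RNA per cell cannot be told apart.

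The members lie on 7 autosomes and the X chromosome of GRCm38. Adamts1 (chromosome 16, 85793827 to 85803113) and Adamts5 (chromosome 16, 85858170 to 85901125) are neighbours on the minus strand. Adam10 spans 70678997 to 70780229 on the plus strand of chromosome 9, and Timp2 spans 118301069 to 118355740 on the minus strand of chromosome 11. Timp1 (chromosome X, 20870166 to 20874735) lies within the gene Syn1 and Timp3 (chromosome 10, 86300372 to 86349506) within Syn3, each on the opposite strand. The library kit does not mark strand. Exons of Timp3 and Syn3 overlap by 1733 bases and those of Adam17 and Iah1 by 311 bases, so their reads are uncertain there. Syn3 had 4359 reads in all libraries against 7007 for Timp3, and Iah1 had 20177 against 41012 for Adam17. Between Timp1 and Syn1 no exonic base overlapped.

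Promoter sequences from RefSeq (GRCm38.p6) were at hand for 6 of the 10 members and are shown for the pair that changed after leptin, Adam10 and Timp2, and for Adamts1, the main versican protease of ovulation. Each runs 5′ to 3′ on the gene's own strand from 250 bases before the RefSeq transcription start through the first 50 bases after it. For Timp2 this start differs from that of the gene as counted. Its window lies wholly inside the span of that gene, which ends at 118355740. Capitals mark matches, on either strand, to the GC box GGGCGG, the CCAAT box, the TATA sequence TATAAA, the AP-1 site TGANTCA, the cyclic AMP response element TGACGTCA or the STAT site TTCNNNGAA.
Adam10, chr9:70678732-70679031, plus strand: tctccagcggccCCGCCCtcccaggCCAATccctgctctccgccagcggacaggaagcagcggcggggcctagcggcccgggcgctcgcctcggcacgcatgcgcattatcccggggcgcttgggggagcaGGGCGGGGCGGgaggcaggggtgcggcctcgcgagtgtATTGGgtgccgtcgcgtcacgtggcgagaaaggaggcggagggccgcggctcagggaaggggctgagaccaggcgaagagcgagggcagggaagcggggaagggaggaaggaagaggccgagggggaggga
Timp2, chr11:118355362-118355661, minus strand: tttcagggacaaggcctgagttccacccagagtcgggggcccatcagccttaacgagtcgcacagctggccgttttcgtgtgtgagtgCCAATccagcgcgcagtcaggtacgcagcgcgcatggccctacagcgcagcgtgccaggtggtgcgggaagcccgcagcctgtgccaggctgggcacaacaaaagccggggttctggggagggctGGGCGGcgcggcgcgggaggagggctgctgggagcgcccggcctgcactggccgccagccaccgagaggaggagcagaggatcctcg
Adamts1, chr16:85803064-85803363, minus strand: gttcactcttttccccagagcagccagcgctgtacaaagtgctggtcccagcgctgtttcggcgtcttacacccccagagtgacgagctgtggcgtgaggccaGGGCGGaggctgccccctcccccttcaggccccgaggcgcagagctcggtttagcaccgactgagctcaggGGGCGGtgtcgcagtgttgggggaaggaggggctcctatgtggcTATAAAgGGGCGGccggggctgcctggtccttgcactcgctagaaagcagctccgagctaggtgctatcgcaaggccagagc
The Adam10 promoter held 3 GC boxes, of which 2 share a base, and 2 CCAAT boxes. The Timp2 promoter held 1 of each, and the Adamts1 promoter held 3 GC boxes and 1 TATA sequence just before the start. Of all 32851 promoters of this length, 35.7% held a GC box, 37.4% a CCAAT box and 13.6% TATAAA. No match to the AP-1, cyclic AMP or STAT letters was found in these 3 windows, against 7.81%, 1.79% and 8.30% of all promoters. A match is a run of letters and no evidence of binding.

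Per kilobase of exon, Timp1 was the most abundant member, with a median of 698 CPM per kb over the 34 libraries, and Adam10 followed with 149 CPM per kb. Adam17 had 33.1, Adamts1 22.9 and Adam9 22.4 CPM per kb. The remaining members were scarce on this scale, with medians of 5.23 for Timp3, 4.11 for Adamts4, 3.59 for Mmp2, 3.16 for Timp2 and 0.808 CPM per kb for Adamts5. Neighbours in this order from Adam17 to Adam9 and from Timp3 to Timp2 overlapped over libraries and changed places between groups. By group medians, Adam10 was above Timp1 in 16 C alone, and Timp2 stood at rank 3 of 10 in 16 L and at rank 7 or 8 in the other groups. Timp1 alone made up between 6.67% and 92.2% of the length-scaled reads of all 10 members in a library. Adam10 had the widest spread between groups, with group medians from 327 CPM in 4-week HFD to 3949 CPM in 16 C.

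**Figure D1:**
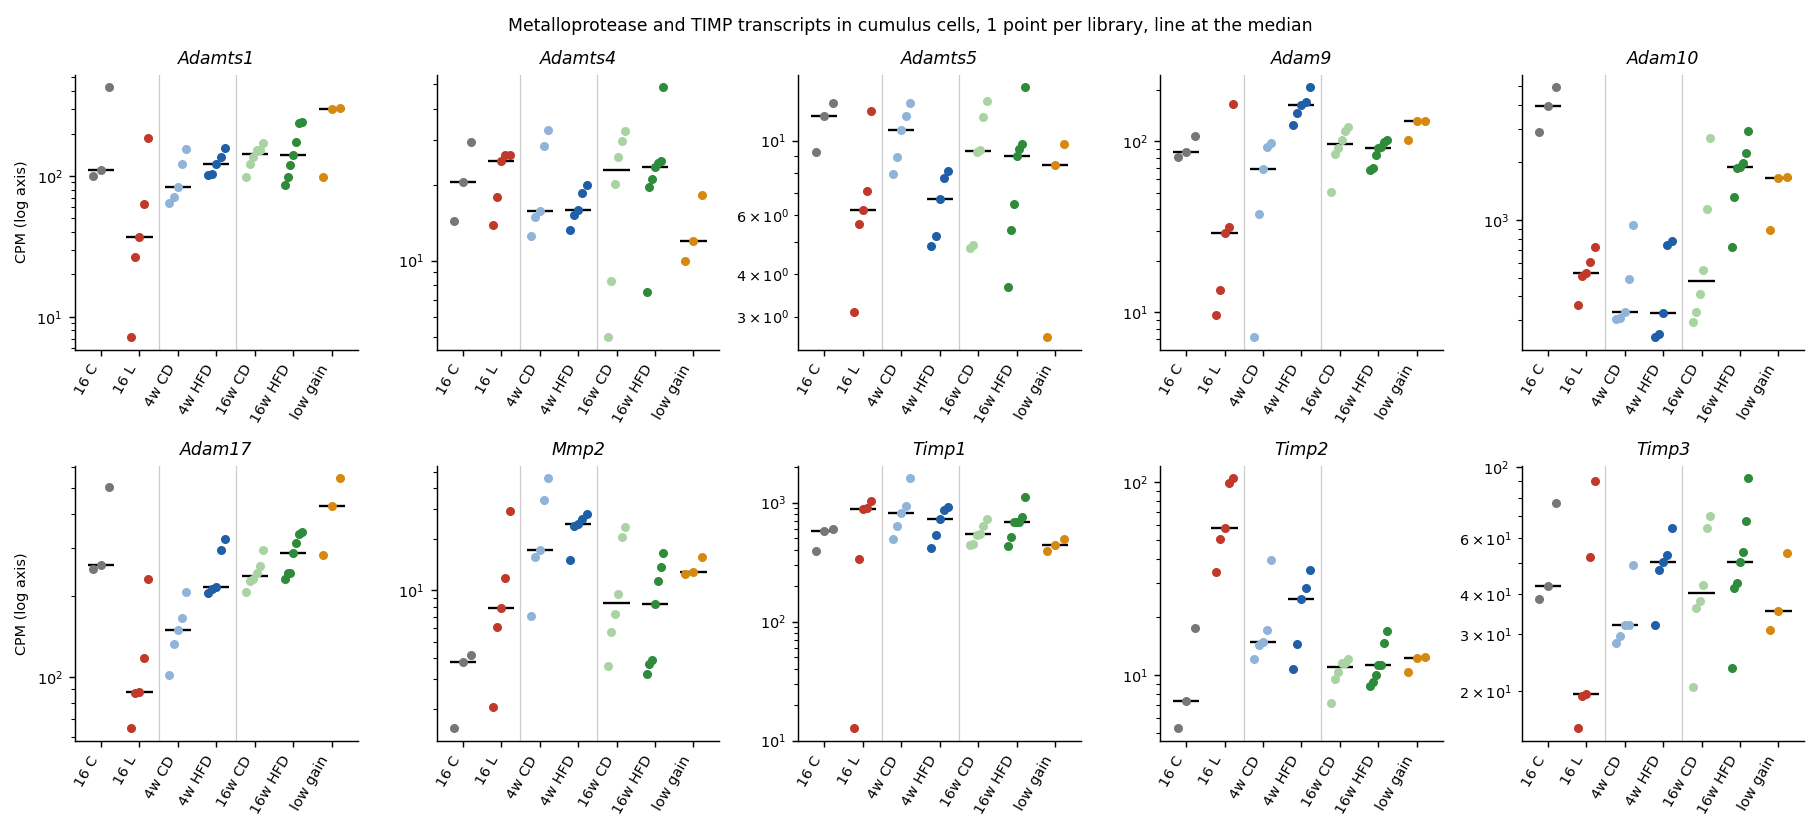
CPM of each member (log axis, own scale per gene) in every library by group, with 1 point per library and a line at the group median. Adam10 was higher in the 3 libraries of 16 C (2868 to 4950 CPM) than in the 5 of 16 L (362 to 727 CPM), Timp2 was lower (5.31 to 17.7 against 34.4 to 104.8 CPM), and the 16 L point at 12.7 CPM of Timp1 is library 18.

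The first comparison asked what high leptin, without the diet, did to these transcripts. Adam10 fell and Timp2 rose in CCs of leptin-treated mice, and both were called (adjusted p under 0.05 by the quasi-likelihood test of edgeR, Benjamini-Hochberg adjusted over all genes). These 2 of 10 members compare with 8.56% of all 11723 genes tested. The CPM of the groups did not overlap for Adam10, Adam17 and Timp2, that is for 3 of 10 members, against 23.4% of all genes. The median log2 fold change was -0.58 over the members and 0.27 over all genes tested. When libraries were scaled by their totals alone the median was 0.19 over the members and 1.08 over all genes. Adam10 then had a log2 fold change of -2.05 and Timp2 of 3.62, against -2.85 and 2.71 with TMM. Relative to the median of all genes they were at -3.13 and 2.54, against -3.12 and 2.44 with TMM. A change of scaling shifts all genes by nearly the same amount, so this likeness was fixed in advance and adds no support.

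Adam10, the betacellulin and Notch sheddase, had 2868, 4950 and 3949 CPM in 16 C 1, 2 and 3. In 16 L it had 727 CPM in library 18, 604 in 19, 531 in 20, 362 in 21 and 508 in 23. Every leptin library was below every saline library, and 16 L 18 was the highest of the leptin libraries. The means were 3922 ± 1041 CPM (SD, n = 3) and 546 ± 134 CPM (SD, n = 5), and the fitted level was 7.20-fold lower after leptin (log2 fold change -2.85, standard error 0.45), with an adjusted p of 0.0131. Without 16 L 18 the log2 fold change was -3.07 (adjusted p = 0.000149). The call was kept in 3 of the 8 fits that each left out 1 library, those without 16 L 18, 19 or 21, and lost without 16 C 1, 16 C 2, 16 C 3, 16 L 20 or 16 L 23, where the adjusted p lay between 0.050 and 0.0733.

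Adam17, which sheds amphiregulin and epiregulin, had 250, 506 and 260 CPM in the saline libraries. In 16 L it had 64.5 CPM in library 18, 231 in 19, 86.9 in 20, 87.6 in 21 and 117 in 23. The groups did not overlap, although 16 L 19 came close to the lowest saline library. The difference did not pass (log2 fold change -1.55, SE 0.47, adjusted p = 0.0649), and without 16 L 18 it was -1.49 with an adjusted p of 0.0171. Adam17 was also called without 16 L 19, without 16 L 18 and 21 together, by DESeq2, by limma-voom and with all 34 libraries in one fit. Over all genes, DESeq2 called 2382 of 18962, limma-voom 7552 of 11723 and the joint fit 4384 of 13236. Without 16 L 18 it was 4635 of 11077 genes, without 16 L 19 it was 1603 of 11103, and without 16 L 18 and 21 it was 4145 of 10959. Adam9 was low in 4 of the leptin libraries (9.66 to 31.5 CPM) and high in 16 L 19 (164 CPM), around the saline range of 80.7 to 107 CPM. Its log2 fold change was -0.88 (adjusted p = 0.469), and without 16 L 19 it was -2.09 (adjusted p = 0.0285). Limma-voom called Adam9 as well, as it did 7552 of 11723 genes.

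Timp2, which both inhibits MMP2 and helps MMP14 to activate it, had 5.31, 17.7 and 7.34 CPM in 16 C, from 7, 149 and 19 reads. In 16 L it had 51.0 CPM in library 18, 34.4 in 19, 99.5 in 20, 57.9 in 21 and 104.8 in 23, from 84 to 344 reads. Every leptin library exceeded every saline library, with 16 L 19 the nearest to 16 C 2. The means were 10.1 ± 6.62 CPM (SD, n = 3) and 69.5 ± 31.0 CPM (SD, n = 5). The fitted level was 6.54-fold higher (log2 fold change 2.71, standard error 0.57), with an adjusted p of 0.0284. Without 16 L 18 the log2 fold change was 2.65 (adjusted p = 0.00422). The call was kept only without 16 L 18 or 19, and the adjusted p was between 0.0525 and 0.144 without 16 C 1, 16 C 2, 16 C 3, 16 L 20, 16 L 21 or 16 L 23.

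**Figure D2:**
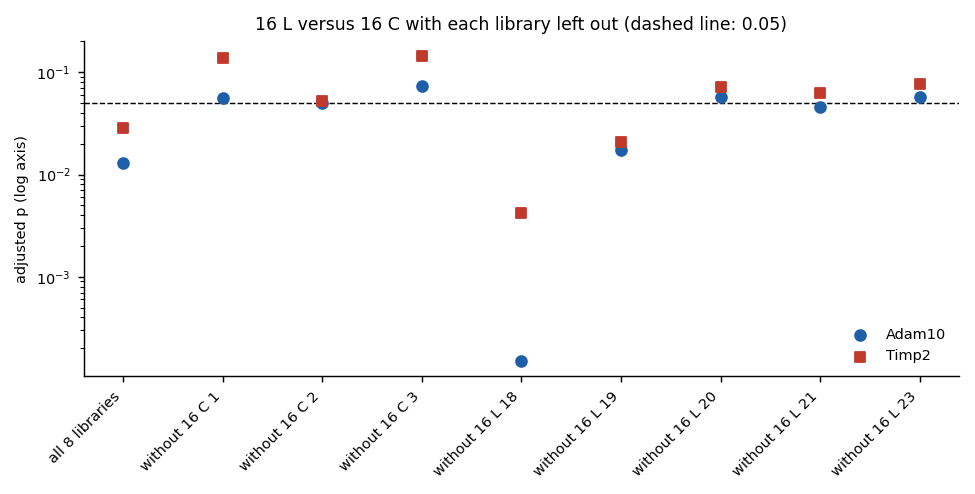
Adjusted p (log axis) of Adam10 (circles) and Timp2 (squares) in 16 L versus 16 C with all 8 libraries and after removal of single libraries. The dashed line is at 0.05, below which both lie without 16 L 18 (0.000149 and 0.00422), and above which both lie without any 1 of the saline libraries.

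Markers of other cells varied between the same libraries. Those of macrophages and neutrophils, 9 genes in the table that all had reads in both groups, summed to 115, 755 and 119 CPM in 16 C 1, 2 and 3, and to 371, 73.2, 1052, 277 and 1191 CPM in 16 L 18, 19, 20, 21 and 23. The groups overlapped, and within each group the libraries with the highest sums, 16 C 2, 16 L 20 and 16 L 23, also had the highest Timp2. In 16 L 19 this sum was below each saline library, with Timp2 at 34.4 CPM and Adam10 at 604 CPM. Oviduct epithelium markers summed to between 204 and 228 CPM in 16 C, where Foxj1, Wfdc2 and Muc1 had 0 reads, and to 36296, 133, 1455, 1869 and 680 CPM in 16 L 18, 19, 20, 21 and 23. In 16 L 18, 20, 21 and 23 they were above every saline library. Within 16 L, library 18 had the most of them and the second-lowest Timp2, and library 19 had the fewest and the lowest Timp2. Cumulus and granulosa markers summed to 4187 to 5201 CPM in 16 C and to 889 to 4344 CPM in 16 L, with medians of 5071 and 2949 CPM. Stroma markers summed to 1844 CPM in 16 L 18 and to at most 63.5 CPM in the other leptin libraries, against 12.9 to 16.9 CPM in 16 C. The TMM factor also moved with the treatment and with Adam10. It was between 0.64 and 0.737 in 16 C and between 0.894 and 1.32 in 16 L. Oocyte markers summed to 1.52 to 2.32 CPM in 16 C and to 12.2 to 59.7 CPM in 16 L. By this sum every leptin library was above every saline library, as it was for Timp2. Of the marker genes tested, 1 was called, Kit, from the oocyte list. The part of these markers and factors in the 2 results was not tested.

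The other TIMPs showed no call. Timp1, the most abundant inhibitor, had 575, 391.7 and 603 CPM in 16 C. It had 12.7 CPM in 16 L 18 and 337, 890, 897 and 1037 CPM in 16 L 19, 20, 21 and 23. A single leptin library thus held the lowest level and 3 others the highest. The log2 fold change was 0.27 (standard error 0.94, adjusted p = 0.865), and 0.53 without 16 L 18 (adjusted p = 0.297). Timp3, the inhibitor of ADAM17 and the aggrecanases, had 42.5, 77.0 and 38.6 CPM in 16 C. Its level was 90.2 CPM in 16 L 18, 52.4 in 16 L 21 and 15.3 to 19.6 CPM in 16 L 19, 20 and 23. The log2 fold change of Timp3 was -0.42 (adjusted p = 0.666) and turned to 0.29 when libraries were scaled by totals alone. Without 16 L 18 it was -1.14 (adjusted p = 0.0747), and without 16 L 18 and 16 L 21 together, the leptin libraries with the most red blood cell transcripts, it was -1.54 (adjusted p = 0.00878). The fit without 16 L 18 and 16 L 21 called 4145 of 10959 genes. Limma-voom called Timp3 with all 8 libraries, as it did 7552 of 11723 genes.

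Among the secreted proteases, Adamts1 had 111, 428 and 99.3 CPM in 16 C and 7.19, 185, 26.6, 62.8 and 36.8 CPM in 16 L 18, 19, 20, 21 and 23. The leptin libraries were below the saline range except 16 L 19, and 16 C 2 was far above the other saline libraries. Its log2 fold change was -1.77 (standard error 0.88, adjusted p = 0.190), and -0.71 without 16 C 2 (adjusted p = 0.655). Limma-voom and the fit of all 34 libraries called it, as they did 7552 of 11723 and 4384 of 13236 genes. Adamts4 had 14.4 to 29.5 CPM in 16 C and 13.9 to 26.2 CPM in 16 L, with a log2 fold change of 0.005 and an adjusted p of 0.994. Adamts5 had 9.27 to 12.9 CPM in 16 C and 3.10 to 12.2 CPM in 16 L, and its log2 fold change of -0.74 (adjusted p = 0.335) turned to 0.097 with library totals alone. Mmp2 had 3.79, 4.15 and 1.54 CPM in 16 C, from 5, 35 and 4 reads, and 2.07 to 29.3 CPM in 16 L, from 3 to 293 reads. Its log2 fold change was 1.85 (standard error 0.83, adjusted p = 0.156). It was called without 16 L 18 and 21 together, with library totals alone and when all 34 libraries were fitted jointly, where the adjusted p lay between 0.0344 and 0.0380. Those fits called 4145 of 10959, 4035 of 11723 and 4384 of 13236 genes.

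**Figure D3:**
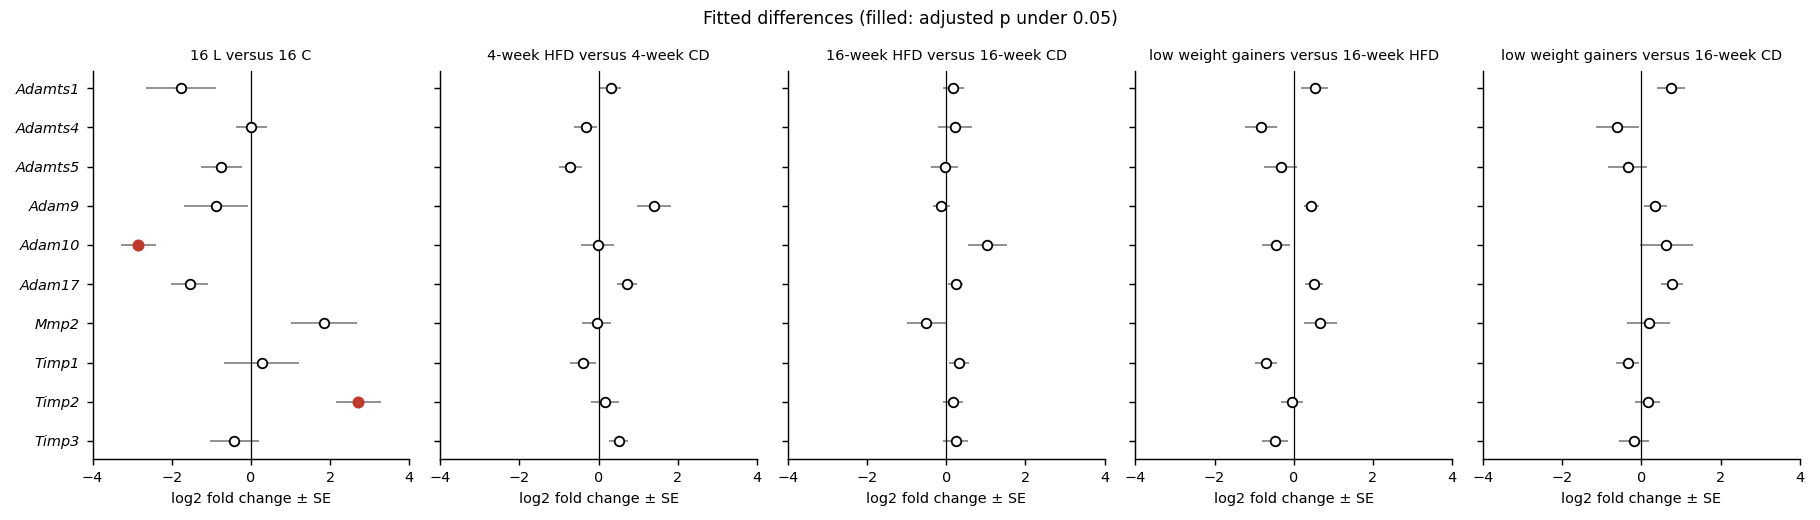
Fitted log2 fold change with its standard error for each member in the 5 comparisons between groups, filled where the adjusted p was under 0.05. Only Adam10 (-2.85) and Timp2 (2.71) in 16 L versus 16 C are filled.

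Ratios of length-scaled reads within a library do not depend on its depth or scaling. Timp2 to Adam10 was 0.0023, 0.0045 and 0.0023 in 16 C 1, 2 and 3, and between 0.0718 and 0.26 in 16 L. The lowest leptin library was thus well above the highest saline library. Timp2 and Adam10 each separated the groups in CPM, in opposite directions, so this ratio had to separate them. It restates those results and adds no further support. Timp1 to Adam10 was 0.438 to 1.11 in 16 C and 3.09 to 13.7 in 16 L 19, 20, 21 and 23, but 0.0964 in 16 L 18. Timp2 to Mmp2 was 1.21 to 4.11 in 16 C and 1.02 to 24.2 in 16 L, and the groups overlapped. Timp3 to Adam17 had a median of 0.134 in 16 C and 0.154 in 16 L. In the diet groups Timp2 to Adam10 lay between 0.004 in a 16-week HFD library and 0.173 in a 4-week HFD library, as a description of libraries from another experiment.

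**Figure D4:**
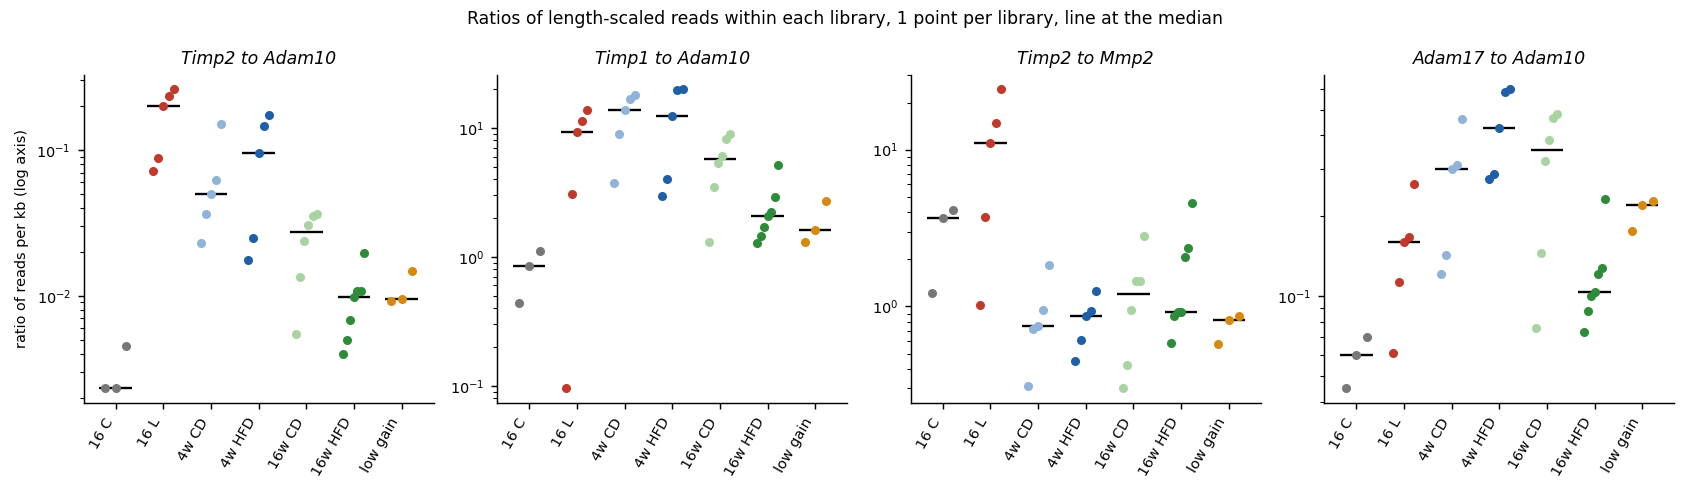
Ratios of reads per kilobase of exon between pairs of members within each library (log axis), with 1 point per library and a line at the group median. Timp2 to Adam10 was at most 0.0045 in 16 C and at least 0.0718 in 16 L, and Timp1 to Adam10 was lowest in 16 L 18 (0.0964). The separation of Timp2 to Adam10 follows from the opposite separations of Timp2 and Adam10 in CPM.

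Of 107 other genes of the same system, 58 passed the filter in the leptin comparison, 3 rose and 3 fell, that is 10.3% against 8.56% of all genes. Adam15, a further catalytic ADAM, rose by 2.67 on the log2 scale (adjusted p = 0.0395). Tspan14, a tetraspanin that carries ADAM10 to the cell surface, rose by 2.21 (adjusted p = 0.0401), and Fbln2, a matrix protein cut by ADAMTS proteases, also rose (adjusted p = 0.0475). Fbln2 had 2 reads in the 16 C libraries together and 1.3005 to 44.5 CPM in 16 L, where library 18 was the highest. Adamts3, a procollagen protease, fell by 3.44 on the log2 scale (adjusted p = 0.0243), and the syndecan Sdc4, a cell surface proteoglycan, fell by 3.93 (adjusted p = 0.00829), from 8948 to 15432 CPM in 16 C to 514 to 1015 CPM in 16 L. The homeobox gene Rhox5 fell by 4.54 (adjusted p = 0.0312), from 10.4 to 16.5 CPM in 16 C to at most 1.69 CPM in 16 L, where it had 13 reads in all. None of the 7 other matrix metalloproteinases tested and none of the 5 other inhibitors passed. Mmp14, the activator of MMP2, had 30.5 to 48.6 CPM in 16 C and 29.4 to 206.9 CPM in 16 L.

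Substrates and inducers were unequally present. Vcan, the versican gene, was abundant, with group medians from 285 to 740 CPM. The ADAM17 ligands Areg and Ereg were low, with group medians of at most 1.33 and 6.39 CPM, while the ADAM10 ligand Btc had group medians from 9.73 to 40.2 CPM. Pgr, the progesterone receptor that induces Adamts1 at ovulation in granulosa cells, had 0 reads in 16 C, 4-week CD and the low weight gainers. It had 27 reads in the 5 libraries of 16 L together, and their spread over these libraries is not given here. For a count of 0 in a library, the upper limit of the expected count is 3 reads at 95% confidence.

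The second comparison asked what 4 weeks of HFD did. No member was called with edgeR, while 4 of 10 had an unadjusted p under 0.05, and DESeq2 called 2 and limma-voom 4. Of all 11727 genes tested, edgeR called 4.26%. DESeq2 called 1292 of 18781 genes and limma-voom 4048 of 11727. The share of all genes at an unadjusted p under 0.05 is not given here, for this or the later comparisons. Adam9 had the largest difference, with 92.9, 96.9, 7.16, 68.7 and 37.3 CPM in libraries 11, 1, 2, 7 and 8 of 4-week CD. The HFD libraries 13, 14, 3, 4 and 5 had 169, 207, 163, 146 and 125 CPM. Every HFD library was above every CD library, a separation seen for 1 of 10 members and 6.62% of all genes, and 4-week CD 2, with 12 reads, was the lowest by far. The log2 fold change of Adam9 was 1.41 (standard error 0.43, adjusted p = 0.0747). It was 1.22 without 4-week CD 2 and 4-week HFD 5 together (adjusted p = 0.105).

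Adam17 had 102 to 207 CPM in 4-week CD and 204 to 323 CPM in 4-week HFD, and only 4-week CD 11 reached into the HFD range. Its log2 fold change was 0.72 (standard error 0.25, adjusted p = 0.0984). Adamts5 had 7.97 to 12.97 CPM in CD and 4.87 to 8.09 CPM in HFD (log2 fold change -0.71, adjusted p = 0.144), and Timp3 had 28.3 to 49.5 CPM in CD and 32.02 to 64.3 CPM in HFD (log2 fold change 0.51, adjusted p = 0.200). DESeq2 called Adam9 and Adam17, and limma-voom called Adamts1, Adam9, Adam17 and Timp3. Adam10 and Timp2, which changed after leptin, had log2 fold changes of -0.03 (standard error 0.41) and 0.16 (standard error 0.36) here. Timp1 was at 492 to 1599 CPM in CD and 418 to 914 CPM in HFD (adjusted p = 0.470), and Adamts1, Adamts4 and Mmp2 had adjusted p between 0.475 and 0.957.

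Among the 60 companion genes tested at 4 weeks, 1 rose and 1 fell (3.33%, against 4.26% of all genes). Adamts9, a versican-cleaving relative of Adamts1, fell by 1.37 on the log2 scale (adjusted p = 0.0401), from 48.0 to 147 CPM in CD to 25.5 to 76.1 CPM in HFD. Cdh2, which encodes the ADAM10 substrate N-cadherin, rose by 0.77 (adjusted p = 0.0468). Of the 12 cumulus and granulosa markers tested, Fshr rose and Npr2 fell.

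After 16 weeks of HFD no member was called, and none had an unadjusted p under 0.05, while 0.0276% of 10861 genes were called. No alternative tool or scaling called a member either. Adam10 had the largest difference. It had 1147, 295, 414, 332, 551 and 2673 CPM in libraries 13, 1, 2, 5, 8 and 9 of 16-week CD. On HFD its lowest, median and highest levels were 726, 1892 and 2926 CPM. Every HFD library was above CD 1, 2, 5 and 8, and CD 13 and 9 lay within the HFD range. The log2 fold change was 1.04 (standard error 0.50, adjusted p = 0.200). Leaving out 16-week CD 9 raised it to 1.76 (adjusted p = 0.0153), in a fit that called 2222 of 10830 genes. Of the 13 libraries, 16-week CD 9 was the only 1 whose removal made the call. Its TMM factor was 0.761, close to the 0.723 to 0.891 of the HFD libraries, against 0.909 to 1.37 in the other CD libraries, and the part of this in the Adam10 level was not tested. Timp2 had ranges that overlapped, with 7.17, 11.0 and 12.2 CPM as the lowest, median and highest in CD and 8.80, 11.3 and 17.0 CPM in HFD. No companion gene of the 51 tested was called.

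The low weight gainers were compared with the 16-week HFD mice that gained weight. No member was called, although 20.7% of all 11258 genes were, and no member separated the groups, against 20.4% of all genes. DESeq2 called Timp1, limma-voom called Adam17 and Timp1, and 3 of 10 members had an unadjusted p under 0.05. Over all genes, DESeq2 called 2765 of 16743 and limma-voom 3287 of 11258. With library totals alone Adam9 and Adam17 were called, as were 2183 of 11258 genes. Timp1 had 490, 391 and 436 CPM in the low weight gainers and 433, 686 and 1105 CPM as the lowest, median and highest of 16-week HFD. They were below every HFD library except 16-week HFD 10. The log2 fold change of Timp1 was -0.70 (standard error 0.27, adjusted p = 0.0720). It was called without 16-week HFD 10 (adjusted p = 0.0405), in a fit that called 2401 of 11165 genes. Adam17 had 428, 544 and 284 CPM against 230 to 344 CPM in HFD (log2 fold change 0.50, adjusted p = 0.121), and Adam9 had 101, 132 and 131 CPM against 68.0 to 101 CPM (0.45, adjusted p = 0.105). Adamts4 had 9.99 to 18.2 CPM in the low weight gainers and 7.53 to 48.7 CPM in HFD (adjusted p = 0.142). It was called without 16-week HFD 6, in a fit that called 2732 of 11149 genes.

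Of the 55 companion genes tested here, 13 were called (23.6%, against 20.7% of all genes), 8 higher and 5 lower in the low weight gainers. Vcan, the main ADAMTS1 substrate, fell by 1.04 on the log2 scale (adjusted p = 0.00491), from 596 to 869 CPM in HFD to 338 to 421 CPM. Sdc1, a syndecan shed by metalloproteases, rose by 1.70 (adjusted p = 0.00257), and Btc fell by 0.92 (adjusted p = 0.0427). Lrp1, the receptor that clears secreted proteases and TIMP complexes from the cell surface, rose by 1.71 (adjusted p = 0.000375), from 24.3 to 45.2 CPM to 102 to 134 CPM. Rhbdf1, the iRhom that escorts ADAM17 to the surface, rose by 2.01 (adjusted p = 0.00867), and Frmd8, which stabilises that complex, rose by 1.02 (adjusted p = 0.0113). The proprotein convertase Pcsk7 rose by 0.93 (adjusted p = 0.0482). Of the relatives, Adamts6 fell by 1.12 (adjusted p = 0.0388) and Adamts9 fell by 0.95 (adjusted p = 0.0230), while Mmp19 rose by 0.67 (adjusted p = 0.0277) and Mmp23 rose by 0.75 (adjusted p = 0.0148). Fos fell by 0.83 (adjusted p = 0.0482) and Cebpb rose by 1.88 (adjusted p = 0.00584), both of them transcription factors induced at ovulation. Among 11 cumulus and granulosa markers tested, Ptgs2 and Inhba fell and Amhr2 and Cyp11a1 rose, and of 8 macrophage and neutrophil markers S100a8 rose. The latter list summed to 289 to 364 CPM in the low weight gainers and 137 to 661 CPM in HFD, and its part in these results was not tested.

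Against 16-week CD, no member was called in the low weight gainers, with 1 of 10 at an unadjusted p under 0.05 and 0 called by DESeq2 or limma-voom, while 0.00861% of 11620 genes were called. That member was Adam17, with 428, 544 and 284 CPM against 207 to 295 CPM (log2 fold change 0.77, standard error 0.28, adjusted p = 0.363). The comparisons of the low weight gainers with HFD and with CD share the same 3 libraries. The difference between the diet effects at 16 and at 4 weeks was tested as an interaction, which called 3.66% of 12235 genes and no member. For Adam9 the diet effect was 1.43 smaller on the log2 scale at 16 weeks than at 4 weeks (interaction -1.43, standard error 0.47, adjusted p = 0.0742). DESeq2, limma-voom and library totals called it, as did the fits without 16-week CD 5, 16-week CD 9 or 4-week CD 11. Over all genes, DESeq2 called 1160 of 19534, limma-voom 2355 of 12235 and library totals 873 of 12235. The fits without 16-week CD 5, 16-week CD 9 and 4-week CD 11 called 670 of 12200, 1685 of 12208 and 1204 of 12377 genes. For Adam10 the interaction was 1.099 (standard error 0.70, adjusted p = 0.342), and it was called by limma-voom and without 16-week CD 9. Of the companions, Adamts9 was called with an interaction of 1.83 (adjusted p = 0.0249), Fbln1 with -1.65 (adjusted p = 0.0423) and Cdh2 with -1.42 (adjusted p = 0.0363).

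Within groups, the members did not vary as 1 block. After group means were removed over the 34 libraries, log2 CPM of Adamts1 followed that of Adam17 with Pearson's r = 0.766, whereas Adamts1 and Adam10 had r = -0.0062 and Adam10 and Timp2 had r = -0.0839. Among 13236 genes, those most like Adam10 were Jmy (r = 0.925), Clasp2 (0.915) and Pdzd8 (0.908). The genes most like Adamts1 were Slc37a2 (0.865), Fam198b (0.814) and Usp9x (0.802), and those most like Timp2 were Pelo (0.746), Pde2a (0.695) and Dicer1 (0.691). These values describe libraries that share depth and scaling, and each gene was picked as the highest of many.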

How the data were processed

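The authors made the libraries with Smart-seq2 and Nextera XT and deposited 1 table of read counts per gene and library, whole numbers without normalization. The labels' processing notes name Trim Galore 0.4.2, HISAT2 2.0.5 and GRCm38, and the counting program is not given in the sources used here. Groups came from the sample labels. Counts were fitted with edgeR 4.0.16 in R 4.3.3 (TMM, filterByExpr by group, robust quasi-likelihood F-test, two-sided) on the libraries of each comparison alone, and called at a Benjamini-Hochberg adjusted p under 0.05. The standard error is the log2 fold change divided by the square root of F. Exon lengths were those of GENCODE M21, whose ends differ from the table for Adam9, Adamts5 and Mmp2. Total counts ranged from 1104611 to 13207018. Of 72 replicate pairs, 0 had the same values, and their lowest chi-square per degree of freedom (3.26) was above sampling noise. The fits were tested on simulated data. Alternatives were DESeq2 1.42.0, limma-voom (limma 3.58.1) with sample quality weights, RLE factors, library totals alone, no filter, all 34 libraries in one fit and leaving out each library. Removing 2 libraries at once was added after seeing the data. The members, the companion genes and the markers were chosen with earlier results of these data known. The genes named are all members, up to 4 called companions per list and comparison, and the 3 genes most like Adamts1, Adam10 and Timp2. Partners of the members are also named. Adgre1, Hbb-bs and Hbb-bt were not used here.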

Additional observations from a re-analysis of the deposited data

Results flagged for a closer look

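Within groups of 4 to 10 libraries, 4 of 50 member and group pairs held a library whose gap to its nearest neighbour passed Dixon's limit on log2 CPM, and chance gives about 1 in 20. Timp1 was at 12.7 CPM in 16 L 18, against 337 to 1037 CPM in the other leptin libraries. Mmp2 was at 15.2 CPM in 4-week HFD 14, against 24.1 to 28.3 CPM. In 4-week CD, Timp2 was at 39.4 CPM in library 7, against 12.2 to 17.1 CPM, and Timp3 at 49.5 CPM in library 2, against 28.3 to 32.2 CPM. No member passed the test of a difference between the diet effects at 16 and 4 weeks.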

How the results depend on the processing

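The calls of Adam10 and Timp2 after leptin held under DESeq2, limma-voom, RLE factors, library totals, no filter and all 34 libraries in one fit, with log2 fold changes from -2.88 to -2.05 and from 2.70 to 3.62. Depth limits Timp2 in 16 C (7 to 149 reads), Mmp2 and Adamts5, and 3 saline libraries limit every leptin result, since either call was lost without any 1 of them. In 16 L versus 16 C the number of members called was 2, and became 3 with DESeq2 (adding Adam17) and 3 with library totals (adding Mmp2). It became 6 with limma-voom, which called 7552 of 11723 genes. It became 5 with all 34 libraries (4384 of 13236 genes) and 5 without 16 L 18 and 21 together (4145 of 10959 genes). With single libraries left out it was 3 without 16 L 18, 4 without 16 L 19, 1 without 16 L 21 and 0 without any other. At 4 weeks it was 0, and became 2 with DESeq2 and 4 with limma-voom (0 to 2 over libraries left out). The 2 were found without CD 11. After 16 weeks of HFD it was 0 to 1, with 1 without CD 9. In the low weight gainers against HFD it became 1 with DESeq2, 2 with limma-voom and 2 with library totals (0 to 1), and in the interaction 1, 2 and 1 (0 to 2). Against CD it stayed 0.

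The number of all genes called in 16 L (1004) became 2382 with DESeq2, 7552 with limma-voom, 4035 with library totals, 504 with no filter, 4384 with all 34 libraries and 4145 without 16 L 18 and 21 (30 without 16 C 1 to 4635 without 16 L 18). At 4 weeks (499) it became 1292 with DESeq2, 4048 with limma-voom, 69 with all 34 libraries and 0 without 4-week CD 2 and HFD 5, where DESeq2 and limma-voom were not run (8 without CD 8 to 1700 without CD 11). In 16-week HFD (3) it became 1130 with DESeq2, 5 with limma-voom, 1646 with library totals, 13 with no filter and 1258 with all 34 libraries (1 in 8 of the fits that left out a library, 473 without CD 13 and 2222 without CD 9). In the low weight gainers it went from 2330 to 487 with all 34 libraries against HFD (596 without low weight gainer 23 to 2732 without HFD 6), and from 1 to 226 with DESeq2, 196 with limma-voom, 0 with library totals and 7 with all 34 libraries against CD (0 to 1). In the interaction (448) it became 1160, 2355, 873 with library totals and 157 with all 34 libraries (69 without 4-week HFD 5 to 1685 without 16-week CD 9). The cause was not tested.

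Of the member fold changes, 22 turned sign under an alternative and 39 with 1 library left out, none of them a called value. In 16 L, Adamts4 was -0.022 with DESeq2, -0.089 with limma-voom, -0.016 with RLE and -0.0062 without 16 L 18 and 21, and with library totals Adamts5 was 0.097 and Timp3 0.29. At 4 weeks Timp1 was 0.050 with limma-voom and Adam10 0.17 without CD 2 and HFD 5. In 16-week HFD with library totals, Adamts1 was -0.16, Adamts4 -0.21, Adam17 -0.11, Timp2 -0.15 and Timp3 -0.096. Against HFD, Timp2 of the low weight gainers was 0.026 with limma-voom and 0.12 with library totals. Against CD with library totals Mmp2 was -0.18 and Timp2 -0.038. In the interaction Mmp2 was 0.12 with limma-voom, and Timp2 -0.043 with limma-voom, -0.21 with library totals, -0.026 with no filter and -0.021 with all 34 libraries. With single libraries left out, the values of those that turned ranged in 16 L from -0.21 to 0.34 (Adamts4), and at 4 weeks from -0.30 to 0.37 (Adam10), -0.26 to 0.32 (Mmp2) and -0.032 to 0.59 (Timp2). In 16-week HFD they ranged from -0.037 to 0.43 (Adamts4) and -0.24 to 0.11 (Adamts5). In the low weight gainers they ranged from -0.67 to 0.056 (Adamts5) and -0.10 to 0.095 (Timp2) against HFD, and from -0.68 to 0.093 (Adamts5) and -0.42 to 0.0074 (Timp3) against CD. In the interaction they ranged from -0.30 to 0.042 (Adamts1) and -0.39 to 0.25 (Timp2). No paired analysis was possible because the groups compared share fewer than 2 replicate numbers. The pseudocount alternative was not run, since every member passed the filter.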
